A study of Homo sapiens with 6 samples.

Results

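The genes described here are 9 genes of vitamin A (retinol) handling and retinoic acid reception in HaCaT cells, an immortalized human keratinocyte line. They were taken from the 12499 genes of the deposited table by symbol, as DHRS2, DHRS3, RDH10, RDH11, ALDH1A3, CRABP2, RARA, RARG and RXRA, and each of the 9 had 1 row. They had been picked from earlier results of the same comparison between the groups, so their differences are given below as a description, without a p-value. The study compared HaCaT cells infected with a lentivirus named LV-ATF7, made to express the transcription factor ATF7, with cells infected with the negative control lentivirus LV-NC. Both groups were infected for 48 hours and then kept in high glucose for 24 hours before total RNA was taken, and poly(A) RNA was sequenced. There were 3 libraries per group, and the labels do not say whether these came from separate cultures, so the p-values given for other genes measure only the spread between these libraries. The promoter that drives the transgene is not given in the sources used here.

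Keratinocytes take up retinol and store it as esters or oxidize it in 2 steps, first to retinaldehyde and then to retinoic acid. Reductases of the short-chain dehydrogenase family run the first step backwards, so that the balance of oxidation and reduction sets how much retinaldehyde is at hand. Retinoic acid is carried by a small binding protein to nuclear receptors of the RAR class, which sit on DNA as pairs with RXR receptors, and retinoids are known to shift the keratins and the differentiation program of epidermis.

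The libraries held between 16686472 and 20562768 counts. ATF7, the gene that the lentivirus was made to express, was at 50.6, 46.4 and 52.2 CPM (library-scaled read counts, with TMM correction for composition) in libraries labeled LV-NC and at 21.9, 25.7 and 28.0 CPM in libraries labeled LV-ATF7. ATF7 was thus lower, with a log2 fold change of -0.98 ± 0.12 (SE), in the libraries labeled as overexpressing it, and 43.8% of its annotated exon bases are shared with other genes. Every direction below is therefore that of the labels, with fold changes written as labeled LV-ATF7 over labeled LV-NC. LV-NC replicate 1 stood apart from its group, being over 2-fold from both other LV-NC libraries in 7.37% of genes tested, against 0.955% for replicate 2 and 0.883% for replicate 3. Among the keratinocyte markers, KRT5 reached 356 CPM at most in LV-NC and stood at 3215 to 3622 CPM in LV-ATF7 libraries, and its usual partner KRT14 was at 0.375 to 12.5 and 1.38 to 1.83 CPM. The 9 keratinocyte markers summed to 1956 to 2668 CPM in LV-NC and 7713 to 8348 CPM in LV-ATF7 libraries. KRT5 was the largest part of the LV-ATF7 sums, and the markers did not all move alike. CDH1 was at 319.4 to 428.5 CPM in LV-NC and 319.2 to 338.8 CPM in LV-ATF7 libraries. Apart from CDH1 and KRT14, each marker was higher in every LV-ATF7 library than in every LV-NC library.

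Of the 9 genes, 6 were higher in libraries labeled LV-ATF7 without overlap between the groups, DHRS2 and RARA were lower without overlap, and RDH11 overlapped. Among all 12462 genes tested, 72.7% did not overlap between the groups, 38.0% being higher in LV-ATF7 libraries. With edgeR's quasi-likelihood test 67.6% of all genes had a Benjamini-Hochberg adjusted p under 0.05, 34.7% higher and 32.9% lower in LV-ATF7 libraries, and 8 of the 9 genes were among them, 6 higher and 2 lower. The 9 genes were picked from this comparison, so nothing is read from that count. The median log2 fold change was 1.77 over the 9 genes and 0.00016 over all genes. In bulk RNA, fewer cells of a kind and less RNA per cell cannot be told apart.

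**Figure D1:**
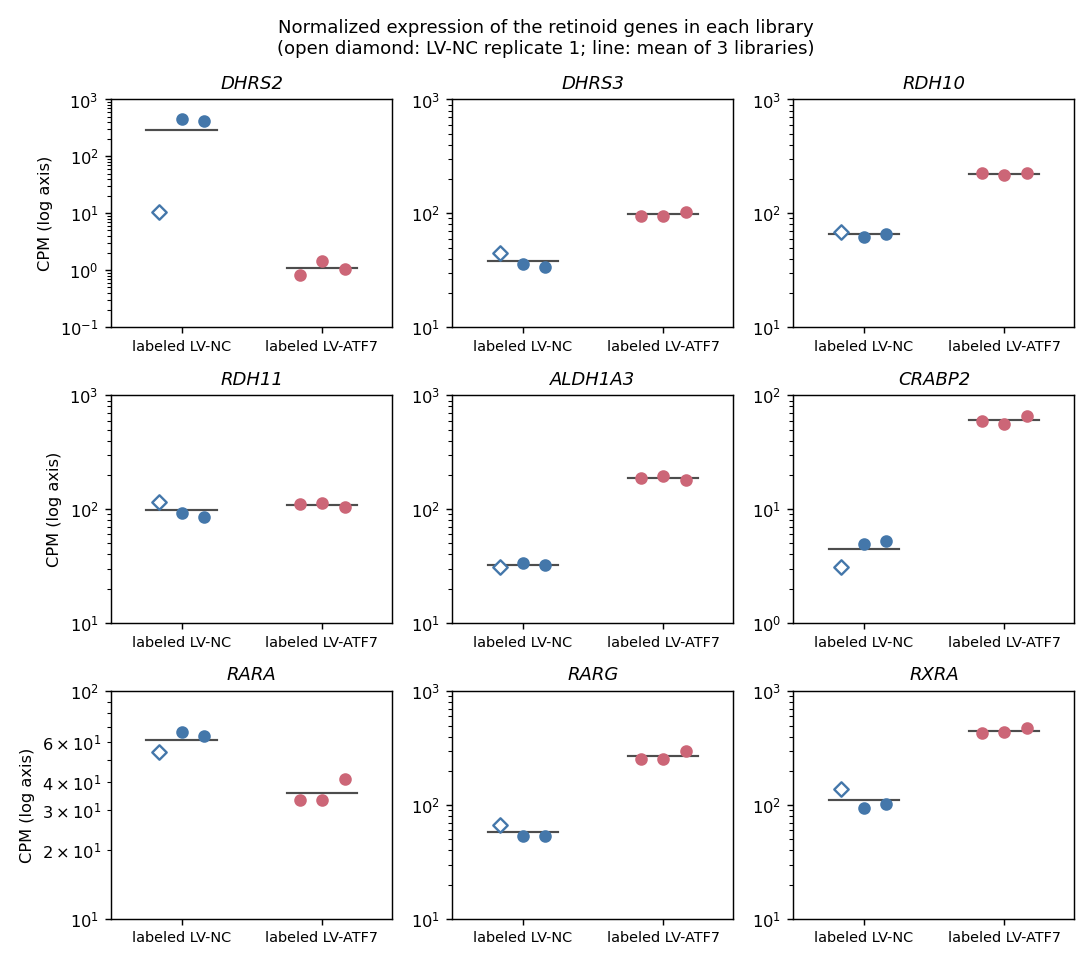
Normalized expression of the 9 retinoid genes in each library, in CPM on a log axis, for libraries labeled LV-NC (blue, with replicate 1 as an open diamond) and LV-ATF7 (red), with the mean of 3 libraries as a line. The groups are apart in every panel except RDH11, and the DHRS2 value of LV-NC replicate 1, 10.5 CPM, lies between those of its group and those of the LV-ATF7 libraries.

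RDH10, the dehydrogenase that oxidizes retinol to retinaldehyde, lies on chromosome 8 at 73294612-73325281 (GRCh38, plus strand). It was at 69.1, 61.6 and 65.2 CPM in libraries labeled LV-NC and at 225, 218 and 227 CPM in libraries labeled LV-ATF7. The 3 LV-ATF7 libraries were all above the 3 LV-NC libraries and lay close together, and the log2 fold change was 1.77 ± 0.087 (SE, n = 3 per group), a 3.42-fold difference.

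DHRS3, which reduces retinaldehyde back to retinol and is itself known as a retinoic acid target, lies on chromosome 1 at 12567910-12617731 on the minus strand. It was at 44.7, 36.1 and 33.5 CPM in LV-NC libraries and at 94.8, 94.6 and 103.4 CPM in LV-ATF7 libraries. The groups did not overlap, with LV-NC replicate 1 as the highest of its group, and the log2 fold change was 1.36 ± 0.13.

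RDH11, a second retinaldehyde reductase of the endoplasmic reticulum, lies on chromosome 14 at 67676801-67695814 on the minus strand. It was at 115, 92.6 and 84.7 CPM in LV-NC libraries and at 110, 113 and 104 CPM in LV-ATF7 libraries. LV-NC replicate 1 was the highest of all 6 libraries, so the groups overlapped, and the log2 fold change was 0.16 ± 0.13. Without LV-NC replicate 1 it was 0.28, and with scaling by library size alone it was -0.0075, so its direction turned on the scaling. RDH11 was the only one of the 9 genes with this overlap.

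The oxidizing and reducing enzymes that were higher did not rise by the same factor. Per kilobase of exon, the ratio of RDH10 to DHRS3 was 0.882, 0.974 and 1.11 in LV-NC libraries and 1.36, 1.32 and 1.25 in LV-ATF7 libraries. RDH10 was thus level with DHRS3 in the former and above it in each of the latter.

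DHRS2 is a short-chain dehydrogenase known as a reductase of dicarbonyl compounds, whose part in retinoid handling is less settled than that of DHRS3. It lies on chromosome 14 at 23630115-23645639 on the plus strand, and showed the widest spread of the 9 genes. In LV-NC libraries it had 196, 8526 and 7300 counts, or 10.5, 447 and 423 CPM. In LV-ATF7 libraries it had 15, 28 and 19 counts, or 0.837, 1.43 and 1.05 CPM. LV-NC replicates 2 and 3 were 41.4-fold above LV-NC replicate 1, which was 9.50-fold above the mean of the LV-ATF7 libraries. The fitted log2 fold change was -8.03 ± 1.40 with all libraries and -8.62 without LV-NC replicate 1. Counting DHRS2 itself, only 3 genes, or 0.0241% of those tested, had a log2 fold change as low or lower with all libraries. DHRS2 was the one member for which LV-NC replicate 1 was over 2-fold from both others.

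The 250 bases before the RefSeq start of DHRS2 are shown because they hold the one TATAAA among the 13 windows of the members, in capitals, 29 to 24 bases before the start. The window is chr14:23629865-23630114 (GRCh38.p14, plus strand).
DHRS2: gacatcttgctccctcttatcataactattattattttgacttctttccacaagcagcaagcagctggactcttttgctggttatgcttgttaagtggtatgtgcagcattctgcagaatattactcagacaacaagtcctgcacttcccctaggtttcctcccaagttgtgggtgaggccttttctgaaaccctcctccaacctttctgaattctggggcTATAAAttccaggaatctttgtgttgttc
TATAAA, searched on the strand of the gene, was found in 6.80% of all 35116 RefSeq windows of this length. The DHRS2 window had 43.2% G and C, the lowest of the 13, against a median of 58.0% over all windows. Those of RXRA reached 89.2% and that of ALDH1A3 82.4%.

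ALDH1A3, a retinaldehyde dehydrogenase that makes retinoic acid, lies on chromosome 15 at 100877714-100916626 on the plus strand. It was at 30.8, 33.9 and 32.2 CPM in libraries labeled LV-NC and at 187, 194 and 179 CPM in libraries labeled LV-ATF7. The groups stood far apart against a narrow spread within each, with a log2 fold change of 2.53 ± 0.092, or 5.78-fold. Of its exon bases 28.6% are shared with other annotated genes, 27.5% with genes on the opposite strand, and the strand setting of the counting is not given in the sources used here.

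CRABP2, the cytosolic protein that delivers retinoic acid to its receptors, showed the largest rise of the 9 genes. It lies on chromosome 1 at 156699606-156705816 on the minus strand. Its counts were 58, 95 and 90 in LV-NC libraries and 1073, 1110 and 1202 in LV-ATF7 libraries, or 3.11, 4.98 and 5.21 CPM against 59.9, 56.6 and 66.5 CPM. LV-NC replicate 1 was the lowest of all, and no library of one group came near the other. The log2 fold change was 3.78 ± 0.20, or 13.8-fold, and 1.73% of genes tested had one as high or higher. Per kilobase of exon, CRABP2 went from the lowest of the 9 genes in LV-NC libraries, at 4.03 ± 1.05 CPM per kb (SD, n = 3), to the highest in LV-ATF7 libraries, at 55.4 ± 4.58. In the latter it was followed by RARG at 52.1 ± 5.11, and these differed by less than their spread.

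The other genes had these levels per kilobase. In LV-NC libraries DHRS2 stood at 38.8 ± 32.5 CPM per kb, with LV-NC replicate 1 far below the others, and RDH11 at 17.7 ± 2.87. RARA at 12.9 ± 1.29, DHRS3 at 12.5 ± 1.94, RDH10 at 12.3 ± 0.702, RARG at 11.3 ± 1.40 and RXRA at 10.1 ± 2.02 followed, each within the spread of its neighbour. ALDH1A3 was at 5.59 ± 0.267. In LV-ATF7 libraries RDH10 at 42.0 ± 0.860 and RXRA at 40.3 ± 2.12 came after RARG, then ALDH1A3 at 32.3 ± 1.33 beside DHRS3 at 32.1 ± 1.65. RDH11 at 19.8 ± 0.787, RARA at 7.56 ± 0.950 and DHRS2 at 0.146 ± 0.040 closed the order. The order between genes depends on the gene length used. In the deposited FPKM, which rests on another length, CRABP2 was again the lowest in LV-NC libraries, at a mean of 1.44, but in LV-ATF7 libraries it was at 17.7, below RDH10 at 28.7, RXRA at 21.7 and DHRS3 at 20.01. ALDH1A3 at 16.5 and RARG at 12.99 FPKM came after it there.

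RARG, the retinoic acid receptor known as the main form in epidermis, lies on chromosome 12 at 53210567-53232980 on the minus strand. It was at 66.3, 53.9 and 53.9 CPM in libraries labeled LV-NC and at 253, 252 and 298 CPM in libraries labeled LV-ATF7. The groups did not overlap and the log2 fold change was 2.20 ± 0.12.

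RARA, the receptor form known to be expressed in most tissues, lies on chromosome 17 at 40309192-40357643 on the plus strand and went the other way. It was at 54.3, 66.0 and 63.4 CPM in LV-NC libraries and at 33.2, 33.2 and 41.0 CPM in LV-ATF7 libraries. All 3 LV-ATF7 libraries were below all 3 LV-NC libraries, with a log2 fold change of -0.78 ± 0.13, and 17.9% of its exon bases are shared with genes on the opposite strand.

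RXRA, the partner receptor, lies on chromosome 9 at 134317098-134440585 on the plus strand. It was at 137, 95.0 and 103 CPM in LV-NC libraries and at 426, 441 and 472 CPM in LV-ATF7 libraries. LV-NC replicate 1 was the highest of its group and still far below the LV-ATF7 libraries, and the log2 fold change was 2.0003 with an SE of 0.15.

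The opposite directions of RARG and RARA changed the make-up of the receptor transcripts. Per kilobase of exon, RARG was 53.0%, 43.0% and 43.9% of the summed RARA, RARB and RARG level in LV-NC libraries and 85.6%, 85.2% and 85.1% in LV-ATF7 libraries. RARA was 47.1%, 57.0% and 56.0% of that sum in the former and 12.2%, 12.2% and 12.7% in the latter. LV-NC replicate 1 was the one library of its group with more RARG than RARA. The summed level was 24.3 ± 0.293 CPM per kb in LV-NC and 61.2 ± 6.11 CPM per kb in LV-ATF7 libraries. With the FPKM values that the authors deposited, which use another gene length, the RARG share was 44.4 ± 5.47% and 85.8 ± 0.288%. RXRA was 34.2%, 23.9% and 25.6% of the summed RXRA and RXRB level in LV-NC libraries and 62.3%, 61.7% and 61.9% in LV-ATF7 libraries. RXRB itself had a log2 fold change of -0.07 ± 0.098, which did not pass edgeR's quasi-likelihood test (Benjamini-Hochberg adjusted p = 0.537).

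**Figure D2:**
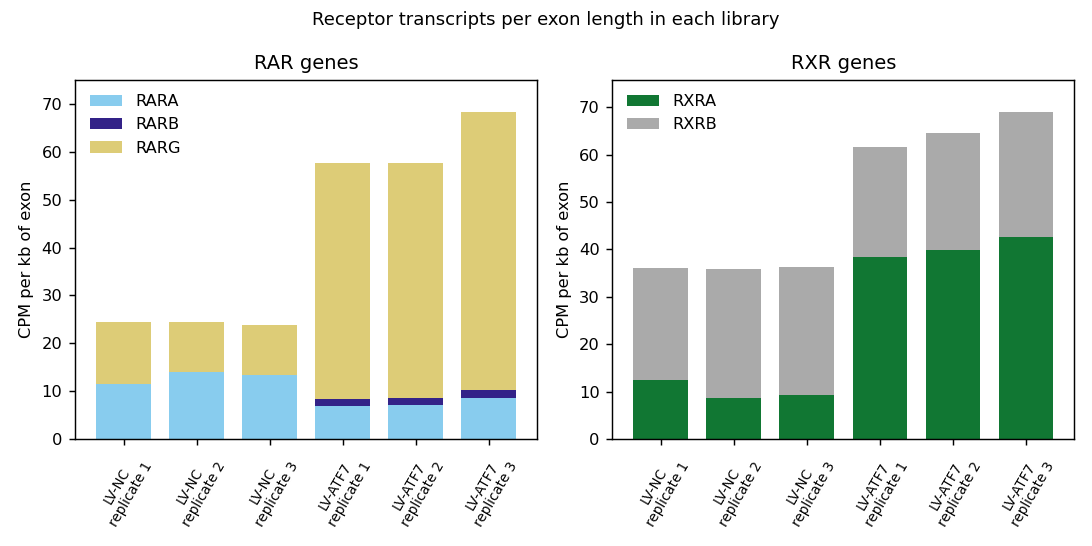
Stacked levels of the RAR genes (left) and RXR genes (right) in each library, in CPM per kilobase of exon. RARG takes 85.1 to 85.6% of the RAR bars in libraries labeled LV-ATF7 and 43.0 to 53.0% in those labeled LV-NC, and RXRA takes 61.7 to 62.3% and 23.9 to 34.2% of the RXR bars.

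RARB, a receptor gene well known to be switched on by retinoic acid through its own promoter, is not among the 9 genes and had 0, 0 and 1 counts in LV-NC libraries. In LV-ATF7 libraries it had 87, 111 and 102 counts. The ratio of the summed counts, scaled for library size, was 297 with an exact 95% counting interval of 52.9 to 11763, which covers counting error only. RARB passed edgeR's quasi-likelihood test (Benjamini-Hochberg adjusted p = 7.51e-06). It entered that test only through its LV-ATF7 libraries, the group where it was high, so its p and interval are a description only. RARB made up 2.24 to 2.66% of the RAR level per kilobase in LV-ATF7 libraries.

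RAR and RXR pairs are known to bind 2 copies of a half-site in the same direction with a fixed number of bases between them. The windows of 250 bases before RefSeq starts were searched on both strands for the half-site AGGTCA, its variant AGTTCA, and those that begin with G, which are GGGTCA on one hand and GGTTCA on the other, and for pairs of them 5 bases apart (DR5), each of which holds 2 half-sites by construction. The windows of RARB and CRABP2 are shown, because RARB holds the full pair and CRABP2, the member with the largest rise, holds a single half-site at the far end. The capitals mark that pair and that half-site, and a further half-site of the RARB window, GGGTCA, stands in lower case. They are chr3:25428013-25428262 (GRCh38.p14, plus strand) and chr1:156705817-156706034 (minus strand), the latter printed only up to the annotated exons of CRABP2.
RARB: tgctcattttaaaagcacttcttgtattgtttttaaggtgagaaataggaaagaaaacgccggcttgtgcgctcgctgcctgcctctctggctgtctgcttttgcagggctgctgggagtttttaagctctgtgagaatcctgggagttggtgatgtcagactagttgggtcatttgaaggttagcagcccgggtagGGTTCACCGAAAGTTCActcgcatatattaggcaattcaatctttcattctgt
CRABP2: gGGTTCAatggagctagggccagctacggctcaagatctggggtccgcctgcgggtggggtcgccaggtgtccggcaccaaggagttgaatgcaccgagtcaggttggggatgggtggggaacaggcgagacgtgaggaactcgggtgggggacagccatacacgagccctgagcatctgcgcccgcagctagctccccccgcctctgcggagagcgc
The DR5 pair of RARB lay 53 to 37 bases before the start. A DR5 pair was found in 26 of the 35116 windows (0.074%) and in 0 of the 13 windows of the 8 members that had one. A half-site was found in 33.8% of all windows and in 5 of the 13 member windows, those of CRABP2, DHRS3, RARA and RXRA. The letters TGACGTCA, the full cAMP response element to which factors of the ATF family are known to bind, were in 1.65% of all windows and in 0 of the 13. No match says only that these letters are not in these windows.

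Around the 9 genes, a list of 67 other genes of the retinoid pathway was examined, of which 49 had a row. Of these 49, 26 were higher and 13 lower in libraries labeled LV-ATF7 in the quasi-likelihood test of edgeR, adjusted over all genes by the Benjamini-Hochberg method, and 10 did not pass. That is 79.6% of the list, beside 67.6% of all genes tested, and the median log2 fold change of the list was 0.65. At 2-fold or more, 18 were higher and 4 lower, beside 19.2% and 13.6% of all genes. The list was chosen with earlier results of these data known, so these shares are a description only.

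The genes of uptake, binding and ester storage had 8 of 13 listed with a row, of which 6 were higher and 2 lower. All 8 thus passed, beside 67.6% of all genes tested. STRA6, the membrane receptor that takes retinol from its carrier in blood, was at 16.4, 20.9 and 22.4 CPM in LV-NC libraries and at 232, 233 and 261 CPM in LV-ATF7 libraries, with a log2 fold change of 3.60 ± 0.14 (edgeR's quasi-likelihood test, Benjamini-Hochberg adjusted p = 1.26e-06). LRAT, which esterifies retinol for storage, was at 5.51, 5.40 and 5.85 CPM in the former and at 0.949, 1.17 and 0.719 CPM in the latter, with a log2 fold change of -2.55 ± 0.23. DGAT1, another enzyme that can esterify retinol, was also lower, at -1.06 ± 0.21. The uptake receptor was thus higher and both esterifying enzymes lower. FABP5, a fatty acid carrier that also binds retinoic acid, was higher by 1.60 ± 0.26 on the log2 scale, and PNPLA4, which hydrolyses retinyl esters, by 1.22 ± 0.12. The carotenoid cleaving enzyme BCO2 was higher by 1.43 ± 0.40, with 27, 9 and 12 counts in LV-NC and 49, 38 and 44 in LV-ATF7 libraries. BCO2 did not pass without LV-ATF7 replicate 1 or without LV-NC replicate 3 (edgeR's quasi-likelihood test, Benjamini-Hochberg adjusted p up to 0.0517).

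Among the other retinol and retinaldehyde oxidoreductases, 10 of 17 listed had a row, 4 being higher, 2 lower and 4 not passing. DHRS9, a retinol dehydrogenase of epithelia, had 6, 3 and 6 counts in LV-NC libraries and 249, 319 and 244 in LV-ATF7 libraries, a log2 fold change of 5.70 ± 0.26 (edgeR's quasi-likelihood test, Benjamini-Hochberg adjusted p = 2.04e-06). Like RARB, DHRS9 entered the test only through its LV-ATF7 libraries, so that p is a description only. AKR1B1, an aldo-keto reductase, was higher by 1.01 ± 0.18 on the log2 scale. SDR16C5, an epidermal retinol dehydrogenase, was lower, at -1.28 ± 0.20. The enzymes of this step did not share 1 direction, and neither did all genes tested, of which 34.7% were higher and 32.9% lower.

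Both genes of retinoic acid synthesis and clearance with a row, of 6 listed, passed the test in opposite directions. Over all genes tested, 67.6% passed. ALDH1A2, which makes retinoic acid as ALDH1A3 does, had 10, 15 and 8 counts in LV-NC and 367, 402 and 352 counts in LV-ATF7 libraries, a log2 fold change of 5.06 ± 0.21. Per kilobase it was still 6.60 to 6.83% of the summed ALDH1A2 and ALDH1A3 level in LV-ATF7 libraries, from 0.954 to 1.53% in LV-NC libraries. CYP26B1, which breaks retinoic acid down, was at 10.7, 7.08 and 7.93 CPM in LV-NC and at 5.69, 4.84 and 6.19 CPM in LV-ATF7 libraries, with a log2 fold change of -0.62 ± 0.20 (edgeR's quasi-likelihood test, Benjamini-Hochberg adjusted p = 0.0257).

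**Figure D3:**
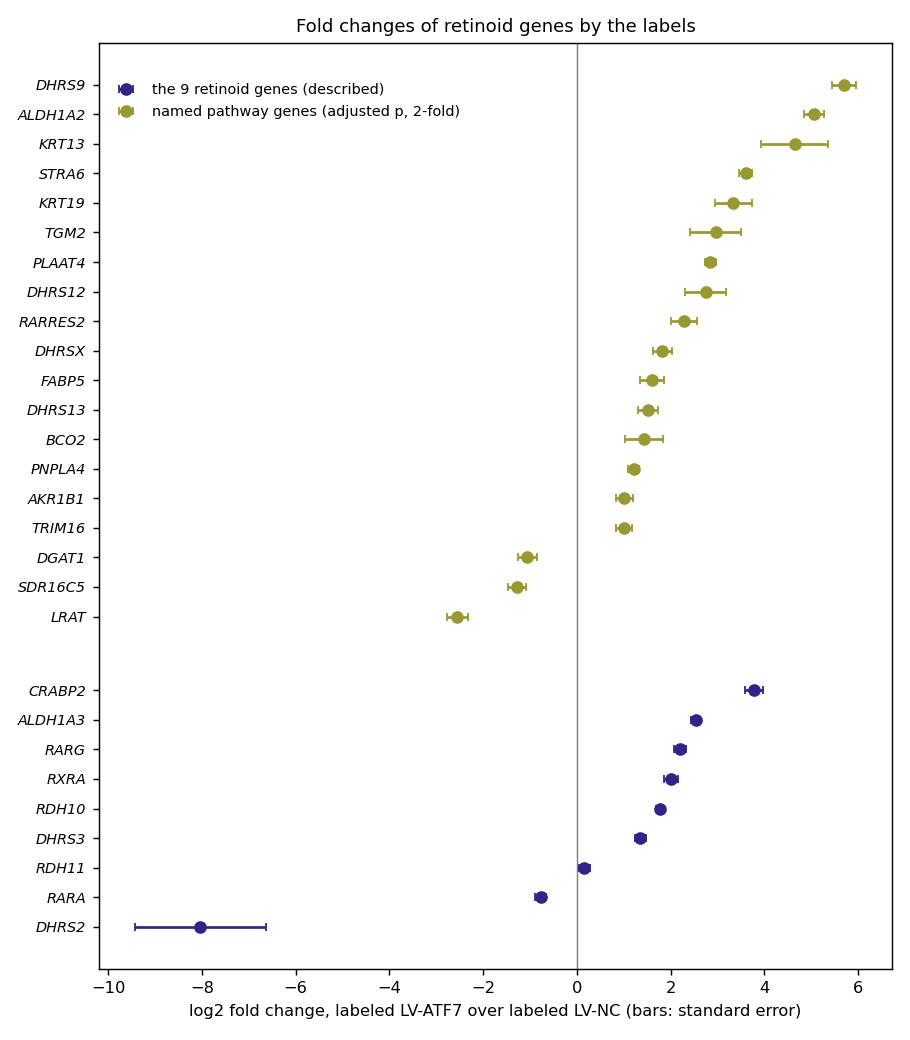
Log2 fold changes, labeled LV-ATF7 over labeled LV-NC, with standard errors, for the 9 retinoid genes (lower block) and the pathway genes named in the text that passed the test at 2-fold or more (upper block), without RARB, whose LV-NC libraries held 1 count in all. DHRS2 lies at -8.03 with the longest bar, and CRABP2 at 3.78 is the highest of the 9.

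Of the 3 other receptor genes with a row, of 4 listed, RARB was higher, PPARD lower and RXRB did not pass. That is 66.7% passing, near the 67.6% of all genes tested. PPARD, a fatty acid receptor that also pairs with RXR, had a log2 fold change of -0.83 ± 0.11. All 11 coregulators listed had a row, with 5 higher, 4 lower and 2 not passing. The share that passed was 81.8%, beside 67.6% of all genes tested.

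Genes known to respond to retinoic acid were examined as a list of 13, of which 11 had a row. Of these 8 were higher, 2 lower and 1 did not pass, and their median log2 fold change was 2.85. RARB and STRA6, given above, are among them. The share of the list that passed was 90.9%, beside 67.6% of all genes tested, of which 34.7% were higher and 32.9% lower. This list too was chosen with earlier results of these data known. PLAAT4, a tumor suppressor also known as a retinoic acid receptor responder, was at 8.83, 7.39 and 8.45 CPM in LV-NC and at 57.6, 59.9 and 60.2 CPM in LV-ATF7 libraries (log2 fold change 2.85 ± 0.11). RARRES2, which encodes chemerin, rose by 2.28 ± 0.28 on the log2 scale from 8 to 12 counts per LV-NC library, and TRIM16 by 1.01 ± 0.17. CYP26B1, a known target as well as an enzyme and given above, was lower.

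The keratins of the list changed most in CPM, and in them LV-NC replicate 1 stood apart. KRT13, a keratin of mucosal epithelia, was at 38.7, 330.2 and 295 CPM in LV-NC and at 5410, 5383 and 5839 CPM in LV-ATF7 libraries, with a log2 fold change of 4.65 ± 0.71. KRT19, a keratin of simple epithelia, was at 172, 538 and 495 CPM in the former and at 3883, 3913 and 4398 CPM in the latter (3.34 ± 0.40). TGM2, a transglutaminase, was at 0.910, 7.02 and 6.43 CPM and at 34.2, 34.5 and 42.9 CPM (2.96 ± 0.54). In all 3 genes LV-NC replicate 1 was the lowest library of its group, as it was for DHRS2, while every LV-ATF7 library was above every LV-NC library. The summed keratinocyte markers moved between the groups with these genes, and the part of that in the result was not tested. Among markers of other cell types, 2 of 3 endothelial markers had a row and summed to 1.12 to 5.50 CPM in LV-NC and 84.6 to 89.9 CPM in LV-ATF7 libraries, almost all of it CDH5 with VWF at 0.482 to 3.93 CPM. For fibroblasts, 2 of 6 markers had a row and summed to 33.1 to 42.7 and 17.3 to 21.7 CPM, with DCN at 0 in LV-NC replicates 2 and 3. The 1 of 4 melanocyte markers with a row was at 1.87 to 2.20 and 3.42 to 6.03 CPM, and the 1 of 4 leukocyte markers at 1.51 to 1.73 and 7.09 to 9.57 CPM.

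**Figure D4:**
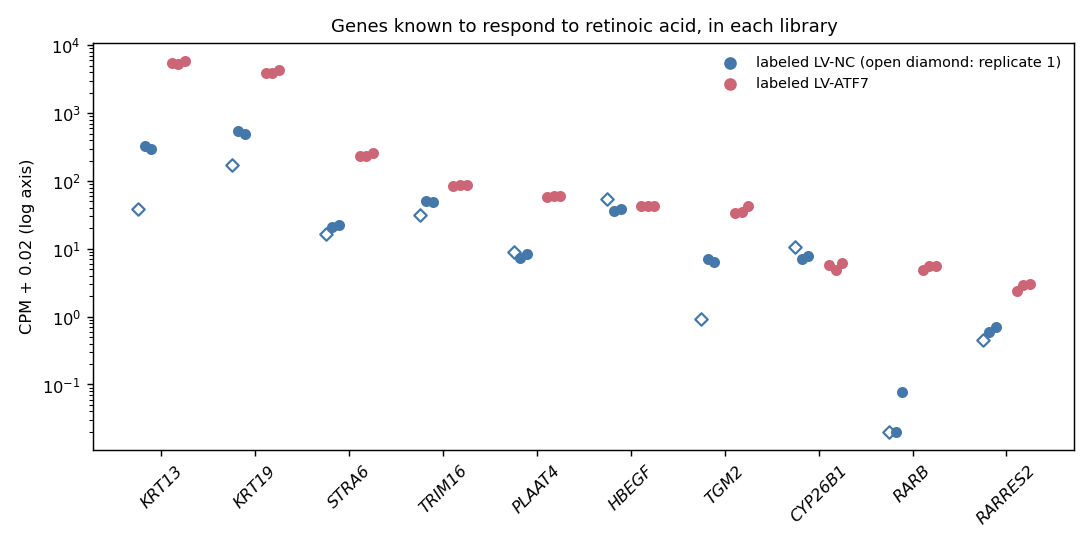
CPM of 10 genes known to respond to retinoic acid in each library, on a log axis after adding 0.02, for libraries labeled LV-NC (blue, replicate 1 as an open diamond) and LV-ATF7 (red). KRT13 reaches 5839 CPM in an LV-ATF7 library. LV-NC replicate 1 lies below its group for KRT13, KRT19 and TGM2 and, less far, for TRIM16, STRA6 and RARRES2. It lies above its group for HBEGF, CYP26B1 and PLAAT4.

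The other reductases named for the DHRS family, the relatives of DHRS2 and DHRS3 by name, were 10 genes, all with a row. Of these 5 were higher, 2 lower and 3 did not pass, with a median log2 fold change of 0.57. The share that passed, 70.0%, was near the 67.6% of all genes tested. DHRS12, of 4 to 19 counts in LV-NC libraries, rose by 2.75 ± 0.44 on the log2 scale, DHRSX by 1.83 ± 0.20 and DHRS13 by 1.52 ± 0.21, with 41.5% of the exon bases of DHRS13 shared with genes on the opposite strand. DHRS11 and DHRS7, both of them carbonyl reductases, were lower at -0.94 ± 0.098 and -0.67 ± 0.14. No other gene of the family came near the -8.03 of DHRS2.

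The patterns of 4 members were compared with those of 11175 genes of at least 50 counts on average, by Pearson's r of log2 CPM over the 6 libraries. The 6 values are dominated by the difference between the groups, so many genes score high and r is given as a description only. Nearest to DHRS2, with LV-NC replicate 1 between the groups in each, were TTC19 (r = 0.9991), TCP1, PTGES3, STMN1 and PTTG1. PTTG1, which encodes securin, shows that shape at 36.7, 108 and 102 CPM in LV-NC and 16.02, 17.5 and 16.8 CPM in LV-ATF7 libraries. DHRS2 had 116 genes with r over 0.99, against 500 for CRABP2, 616 for ALDH1A3 and 788 for RARG. Nearest to CRABP2 were ENKD1, TRIM14, IFITM3, DGLUCY and SLC37A2. FBXO25, TOMM20, AGR2, ADGRF1 and SIRT5 were nearest to ALDH1A3, and CTXN1, SCNN1A, CACNB3 and RPL10 to RARG.

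LV-NC replicate 1 was above both other LV-NC libraries for 5 of the 9 genes (DHRS3, RDH10, RDH11, RARG and RXRA) and below both for 4. Over all genes tested it lay outside the range of the other LV-NC libraries in 88.8%. Any library of 3 alike ones would lie outside the range of the others in most genes, so this share alone says little. Without it, the log2 fold changes were 1.47 for DHRS3, 1.80 for RDH10, 2.48 for ALDH1A3, 3.56 for CRABP2, -0.88 for RARA, 2.29 for RARG and 2.16 for RXRA.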

How the data were processed

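RNA-seq libraries of HaCaT cells, 3 labeled LV-NC and 3 labeled LV-ATF7, were grouped by their deposited titles. The authors deposited raw read counts and FPKM per gene for 12499 genes, and their processing notes name GRCh38, while the aligner, counting program and strand setting are not given in the sources used here. The authors also deposited fold changes (ratio and log2) and p-values of their own comparison, which were not used. Deposited FPKM served only for levels between genes and as log2(FPKM + 1). Counts were scaled by TMM, filtered by filterByExpr (12462 of 12499 genes kept) and tested with the quasi-likelihood test of edgeR 4.0.16 in R 4.3.3, without covariates, with Benjamini-Hochberg adjustment over all genes tested and a threshold of 0.05. The standard error is the size of the log2 fold change divided by the square root of F, and CPM is given as mean ± SD where averaged. The procedure was tested on simulated data with few changed genes and no library set apart, which is unlike these data. DESeq2 1.42.0 and limma 3.58.1 were alternatives. Totals of 16686472 to 20562768 counts per library leave counting error small for abundant genes, and the lowest summed count of a gene was 51. Levels between genes use exon lengths and positions of GENCODE release 29, in which 12485 of the identifiers were found. Promoter windows are of RefSeq (GRCh38.p14), and 8 of the 9 genes had one or more. The members, gene lists and tests were chosen with earlier results of these data known. Named are the 9 genes, ATF7, list genes that passed the threshold at 2-fold or more (others by count or where a sentence turns on them, chosen after their values were seen), and for DHRS2 and the 3 other members with the largest fold change the 5 genes of highest r. Some genes that met this rule are not reported here. Chi-square values of 2.84 to 74.7 per gene between replicates showed 6 distinct libraries.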

Additional observations from a re-analysis of the deposited data

How the results depend on the processing

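The fold change of each of the 8 members other than RDH11 kept its direction under 13 alternatives. These were DESeq2, library size only, upper quartile scaling, 2 other filters, voom with quality weights, the replicate block and 6 fits leaving out a library. On the log2 scale DHRS2 ran from -8.62 to -7.61 and CRABP2 from 3.52 to 3.87. The refits reuse the libraries from which the 9 genes were picked, so they describe only the dependence on the processing. RDH11 ran from -0.0075 to 0.32. Library size alone moved the median of all genes by -0.16 and the share of calls that were higher from 51.3% to 42.4%. Genes called numbered 8429, and 7713 to 10391 under the other tools, scalings and filters. Leaving out a library gave 7290 to 10011, the highest without LV-NC replicate 1, and 34 to 43 of the 49 other pathway genes against 39. Replicate numbers did not pair the libraries (correlations of deviations 0.058, -0.021 and 0.065), and the replicate block gave 8210 calls, and 38 of the pathway genes. On log2(FPKM + 1), which understates low genes, the DHRS2 difference was -3.20. The labels do not say whether the replicates were separate cultures, and LV-NC libraries of 0 to 19 counts limit the folds of RARB, DHRS9, ALDH1A2, DHRS12 and RARRES2. BCO2 was also low, at 27, 9 and 12 counts in LV-NC libraries. None of these genes was tested when at least 10 counts were required in every library. TGM2 had 17 counts in LV-NC replicate 1 but 134 and 111 in replicates 2 and 3.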
